A study of Mus musculus with 8 samples.

Results

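The array design held 4449 probes named by a genomic interval and a strand, which are designed against regions of long intergenic noncoding RNA. Of these, 4184 lay on autosomes by the probe position in the files, and 2658 of them (63.5%) were well above background on at least 2 of 8 arrays. These 2658 probes are the region probes described here, out of 56605 probes that are no control. They were chosen by a measured value, the scanner's detection flag, so detection and everything that follows from it are given as a description. The region probes stood for 2510 combinations of region and strand at 2111 places, 1330 of them on the forward and 1328 on the reverse strand. All region probes were recognised by their interval name, and 0 by a gene name starting with lincRNA. A further 174 region probes on chromosome X and 91 without a position were left out, of which 117 and 40 passed the same detection filter.

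A long intergenic noncoding RNA is a transcript with no protein product that arises between protein-coding genes. Many are spliced and polyadenylated like messenger RNAs, many are found in a restricted set of cells, and their level often follows that of a gene beside them. Some act in the nucleus on chromatin or on nearby genes, whereas for most regions of the genome annotated in this way no function is established.

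RNA from samples described as astrocytes, with spinal cord as the tissue, was measured on 8 single-colour Agilent arrays in C57Bl/6J mice. Each of 8 groups had 1 array. Mice were wild-type (WT) or lacked connexin 47 (Cx47), and within each genotype a group was naive, had experimental autoimmune encephalomyelitis (EAE, the mouse model of multiple sclerosis), had EAE and received iguratimod, or was in the chronic phase of EAE. All mice without connexin 47 are called Cx47-deficient here. The WT mice were marked FL or F/F in the titles and the Cx47-deficient mice icKO, the series title speaks of a conditional knockout in oligodendroglia, and the sources used here do not give the driver of the deletion, the way the cells were isolated or the dose of iguratimod. Since no label says that the arrays came from separate animals, every p-value measures only the spread between these 8 arrays, which may be technical.

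Levels are log2 processed signals minus the 75th percentile of the array, so a level of 0 is that percentile. They are given in the order WT naive, Cx47-deficient naive, WT EAE, Cx47-deficient EAE, WT EAE with iguratimod, Cx47-deficient EAE with iguratimod, WT chronic and Cx47-deficient chronic. Both chronic arrays, and no others, were on slide 2, with a median local background of 57 and 58 and 72.0% and 71.3% of spots well above background. The other 6 arrays shared a slide, with a background of 73 to 82 and 59.7% to 65.8% of spots above it. The slide and the chronic phase therefore cannot be told apart in any value of chronic EAE below. All 10 astrocyte markers were well above background on all 8 arrays, with medians of 1.54 to 3.24. So were all 7 oligodendrocyte markers (2.50 to 4.80), all 6 neuronal markers (4.75 to 5.56), all 6 microglia and macrophage markers (0.94 to 3.26), and all 6 markers of cerebellar granule and Purkinje neurons (2.83 to 5.58), so that the labelled cell type was not the only one with signal. In such samples fewer cells of a type and less RNA per cell cannot be told apart.

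The probes that carry the results are 60 bases long and are printed as the files give them, 5′ to 3′, with positions on the mm9 build. The first set lies beside genes that respond to interferon. Nothing is in capitals, because their letters are shown only to place the signal on 1 strand of the named interval. The first interval also holds a probe of another annotated transcript on the same strand.
Region chr1:175705225-175717250, reverse strand, probe at chr1:175706660-175706719: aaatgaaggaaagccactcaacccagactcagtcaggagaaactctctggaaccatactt
Region chr1:175654606-175672031, reverse strand, probe at chr1:175655106-175655165: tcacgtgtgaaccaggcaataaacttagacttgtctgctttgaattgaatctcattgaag
Region chr1:175654606-175672031, reverse strand, probe at chr1:175655046-175655105: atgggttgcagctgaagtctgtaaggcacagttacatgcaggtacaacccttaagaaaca
Region chr7:111526943-111545093, reverse strand, probe at chr7:111530612-111530671: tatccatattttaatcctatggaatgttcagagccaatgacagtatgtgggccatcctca

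The second set comes from 2 regions that each have a probe with letters in common with that of Ifitm3, an interferon-induced membrane protein that restricts virus entry. The capitals mark the 26 bases that the first 3 sequences have in common, which hold the polyadenylation signal AATAAA. Of the region probes here, 1 lies on chromosome 5, 1 on chromosome 14, and the Ifitm3 probe on chromosome 7.
Region chr5:96591892-96606467, forward strand, probe at chr5:96603471-96603530: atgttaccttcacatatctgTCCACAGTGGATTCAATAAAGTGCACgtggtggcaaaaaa
Region chr14:55433382-55452757, reverse strand, probe at chr14:55444949-55445008: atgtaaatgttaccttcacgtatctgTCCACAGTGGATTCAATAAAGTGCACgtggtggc
Ifitm3, reverse strand, probe at chr7:148195489-148195548: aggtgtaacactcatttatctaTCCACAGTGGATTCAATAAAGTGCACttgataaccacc
A further probe of each of these regions shares 51 bases with its counterpart, again in capitals.
Region chr5:96591892-96606467, forward strand, probe at chr5:96603301-96603360: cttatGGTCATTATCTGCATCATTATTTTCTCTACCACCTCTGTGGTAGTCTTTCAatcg
Region chr14:55433382-55452757, reverse strand, probe at chr14:55445108-55445167: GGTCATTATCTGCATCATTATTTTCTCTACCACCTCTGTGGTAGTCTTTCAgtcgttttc

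The third set lies beside Cbln1, which encodes a synapse-organising protein secreted by cerebellar granule neurons. The capitals mark the 45 bases in which the first 2 probes overlap.
Region chr8:90048940-90049461, forward strand, probe at chr8:90049402-90049461: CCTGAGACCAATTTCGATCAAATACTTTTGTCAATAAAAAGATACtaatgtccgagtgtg
Region chr8:89996710-90049453, forward strand, probe at chr8:90049387-90049446: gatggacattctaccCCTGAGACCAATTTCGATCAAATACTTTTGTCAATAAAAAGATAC
Region chr8:90000619-90061169, forward strand, probe at chr8:90059204-90059263: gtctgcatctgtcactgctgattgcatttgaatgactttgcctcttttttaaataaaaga

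The last pair reads opposite strands of a single place, where the 58 bases in capitals are the reverse complement of the other probe. It is shown because the probes took opposite courses over the arrays.
Region chr13:73472571-73483846, forward strand, probe at chr13:73479856-73479915: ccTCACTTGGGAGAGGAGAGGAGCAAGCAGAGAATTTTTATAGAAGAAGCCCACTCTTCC
Region chr13:73472571-73483846, reverse strand, probe at chr13:73479858-73479917: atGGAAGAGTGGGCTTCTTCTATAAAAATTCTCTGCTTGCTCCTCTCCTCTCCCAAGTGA

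Fewer of the kept region probes than of the kept probes of messenger RNAs were detected on every array, but at like mean signal the shares were close. Of the 4184 autosomal region probes, 1227 were well above background on 0 arrays, 299 on 1, and 1605 on all 8. Of those kept, 60.4% were detected on all 8 arrays, against 87.5% of the 22811 autosomal probes of RefSeq messenger RNAs (NM_ probes) that passed the same filter. When those NM_ probes were weighted to the region probes' mean signal in 10 bins, the share was 62.2%. On single arrays between 1757 (66.1%, WT EAE) and 2251 (84.7%, Cx47-deficient naive) of the 2658 were above background on the shared slide, and 2598 and 2608 (97.7% and 98.1%) on the chronic arrays. The NM_ probes ranged from 91.0% to 97.6%.

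**Figure D1:**
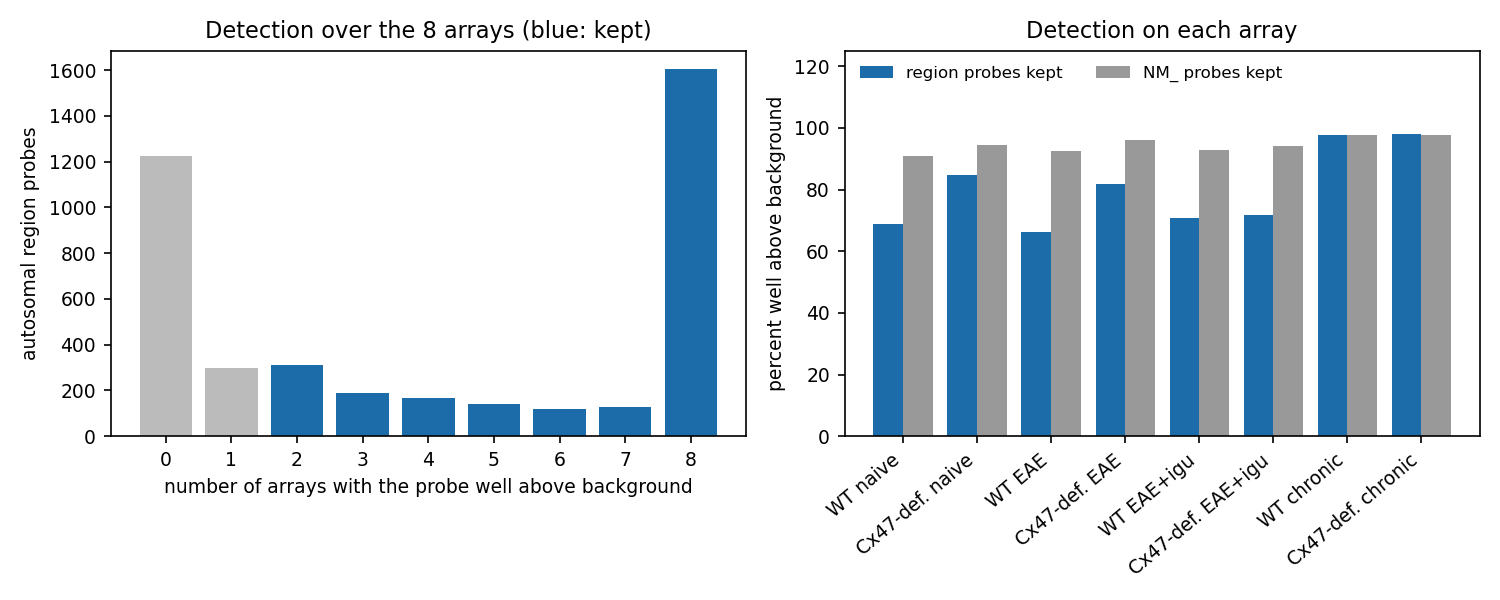
Left, the number of autosomal region probes (y axis) by the number of arrays on which they were well above background (x axis), with the kept probes in blue and 1605 of them on all 8 arrays. Right, the percent of kept region probes (blue) and kept NM_ probes (grey) well above background on each array, where region probes run from 66.1% on the WT EAE array to 98.1% on the Cx47-deficient chronic array.

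The detection filter leaned on the chronic slide. Of the 312 probes that passed on exactly 2 arrays, 269 passed on the 2 chronic arrays alone and 9 on neither of them, and 22 of all 2658 were below background on both chronic arrays. Without the chronic arrays 2183 probes would have passed on at least 2 of 6. Just inside the threshold, the 312 probes had a median level of -4.82 on their highest array and a median mean level of -6.20, and the 299 probes just outside it, detected on 1 array, had -5.20 and -6.66. Probes that entered through the chronic arrays had to be higher there, so counts over all 2658 in chronic EAE are read beside those over the 1605 probes detected on every array.

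The median GC content of the region probes was 45.0%, with a range of 18.3% to 88.3%, and that of the NM_ probes 43.3%. The 6 letters of the canonical polyadenylation signal, AATAAA, read on the probe's own strand, occurred in 118 of them (4.44%), in 11.6% of NM_ probes and in 3.83% of region probes detected on no array. The variant ATTAAA occurred in 64 (2.41%), 3.92% and 3.02%. Regions were between 62 and 533972 bases long (median 11288.5), and 136 held several region probes, at most 3. A probe of another name lay on the same strand within the region in 401 cases, an NM_ probe in 70 of them, so the regions were not all free of annotated transcripts. One of them, chr17:39983902-39985688 on the forward strand, held the probe of the 18S ribosomal RNA gene Rn18s on the same strand. Detection was alike along the genome, from 55.2% of designed region probes on chromosome 15 to 72.6% on chromosome 17.

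The level of a region probe varied more over the arrays than that of an NM_ probe of like signal, with a median SD over 8 arrays of 0.578 against 0.456 on the log2 scale. Over the 6 arrays of the shared slide the values were 0.400 and 0.345. Among probes detected on all 8 arrays, the median level was between -2.61 and -2.27 on the shared slide and -2.08 and -2.05 on the chronic slide.

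In acute EAE the region probes with the largest values lay beside interferon-responsive genes, although no single region probe passed the threshold. The probe at 175706660 on chromosome 1, reverse strand, 28954 bases from Ifi204, which encodes a member of the interferon-inducible p200 family of DNA-binding proteins, had levels of -3.93, -3.85, -0.03, 0.72, -0.85, 0.58, -2.86 and -2.37. All 4 arrays with acute EAE, treated or not, lay above the naive and the chronic arrays. The fitted difference of EAE minus naive was 4.24 ± 0.34 (SE, log2), with an adjusted p of 0.0503 from limma with Benjamini-Hochberg adjustment over 39736 probes. Over the alternative settings the difference was between 3.09 and 4.64, and it passed the threshold in 4 of them.

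The neighbouring region at 175654606 held 3 region probes of the same strand that followed the same course. The probe at 175655046 had levels of -5.68, -5.35, -1.12, -0.41, -2.10, -0.56, -4.14 and -2.57. It was not well above background on either naive array and was so on the other 6. Its fitted difference was 4.75. The other 2 probes gave 4.92 and 3.19 ± 0.34 (limma adjusted p = 0.0609 for the latter). The probe with 4.92 was also below background on both naive arrays, and that with 3.19 on the WT naive array. For the probes with 4.75 and 4.92 the ratio to naive is thus a lower bound, at least 21.8-fold and 14.9-fold. Neither was measured on a naive array, so their values are a description and no p is given for them. Over the alternatives their fitted differences ranged from 2.30 to 5.22 and from 1.90 to 5.22. The region probe on the opposite strand of that interval differed by -0.21, but it was not well above background on any naive or acute array. The Ifi204 probe had levels of -3.64, -4.18, 0.40, 1.04, -0.49, 1.02, -2.74 and -2.25, with a difference of 4.63 ± 0.48 and a limma adjusted p of 0.0601. The Pearson correlation of the probe at 175706660 with Ifi204 was 0.996 over the 8 arrays.

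A further such probe lay on chromosome 7, 29499 bases from Trim30a, an interferon-induced member of the tripartite motif family. Its levels were -4.60, -4.44, -2.17, -1.83, -3.04, -1.66, -4.21 and -4.26, again with the naive and chronic arrays below all 4 arrays of acute EAE. The difference was 2.52 ± 0.37 with a limma adjusted p of 0.102, and 3.09 ± 0.35 (adjusted p = 0.0631) for Trim30a itself, and the 2 probes correlated at 0.991 over 8 arrays. The 2 region probes on the opposite strand of the interval differed by -0.01 and -0.19.

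Another 5 region probes had smaller values of the same sign. They lay on the forward strand of the chromosome 5 interval and the reverse strand of the chromosome 14 interval. Of these, 2 share 26 bases with the Ifitm3 probe. The chromosome 5 probe at 96603471 had levels of -1.01, -0.82, 0.59, 0.78, 0.29, 0.26, -0.20 and -0.30, with a difference of 1.60 ± 0.18 (limma adjusted p = 0.0628). Its counterpart on chromosome 14 at 55444949 had levels of -1.19, -1.05, 0.39, 0.57, 0.05, -0.02, -0.53 and -0.60, and a difference of 1.59 ± 0.17 (limma adjusted p = 0.0628). The naive arrays were lowest and the untreated EAE arrays highest for both. The other 3 probes differed by 1.20 to 1.32, with limma adjusted p-values of 0.0995 to 0.148. Ifitm3 itself had levels of -1.03, -1.78, 2.23, 2.34, 1.55, 2.44, -0.96 and -0.46 and a difference of 3.69 ± 0.41 (limma adjusted p = 0.0628). The 5 probes correlated with the Ifitm3 probe at 0.82 to 0.93 over 8 arrays, and with the NM_ probe nearest on the genome, of Cnot6l or Homez, at -0.36 to 0.08. For the 2 probes that share 26 bases with it, signal of the region and signal from Ifitm3 cannot be told apart on the array. The other 3 had no such run in common with the Ifitm3 probe, and where their signal comes from was not tested. On the opposite strands, the chromosome 5 region probe differed by 1.48 ± 0.37 (limma adjusted p = 0.334) and that of chromosome 14 by -0.04 ± 0.33. Their correlations with the Ifitm3 probe were 0.60 and 0.35. The former was not well above background on the WT naive array.

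**Figure D2:**
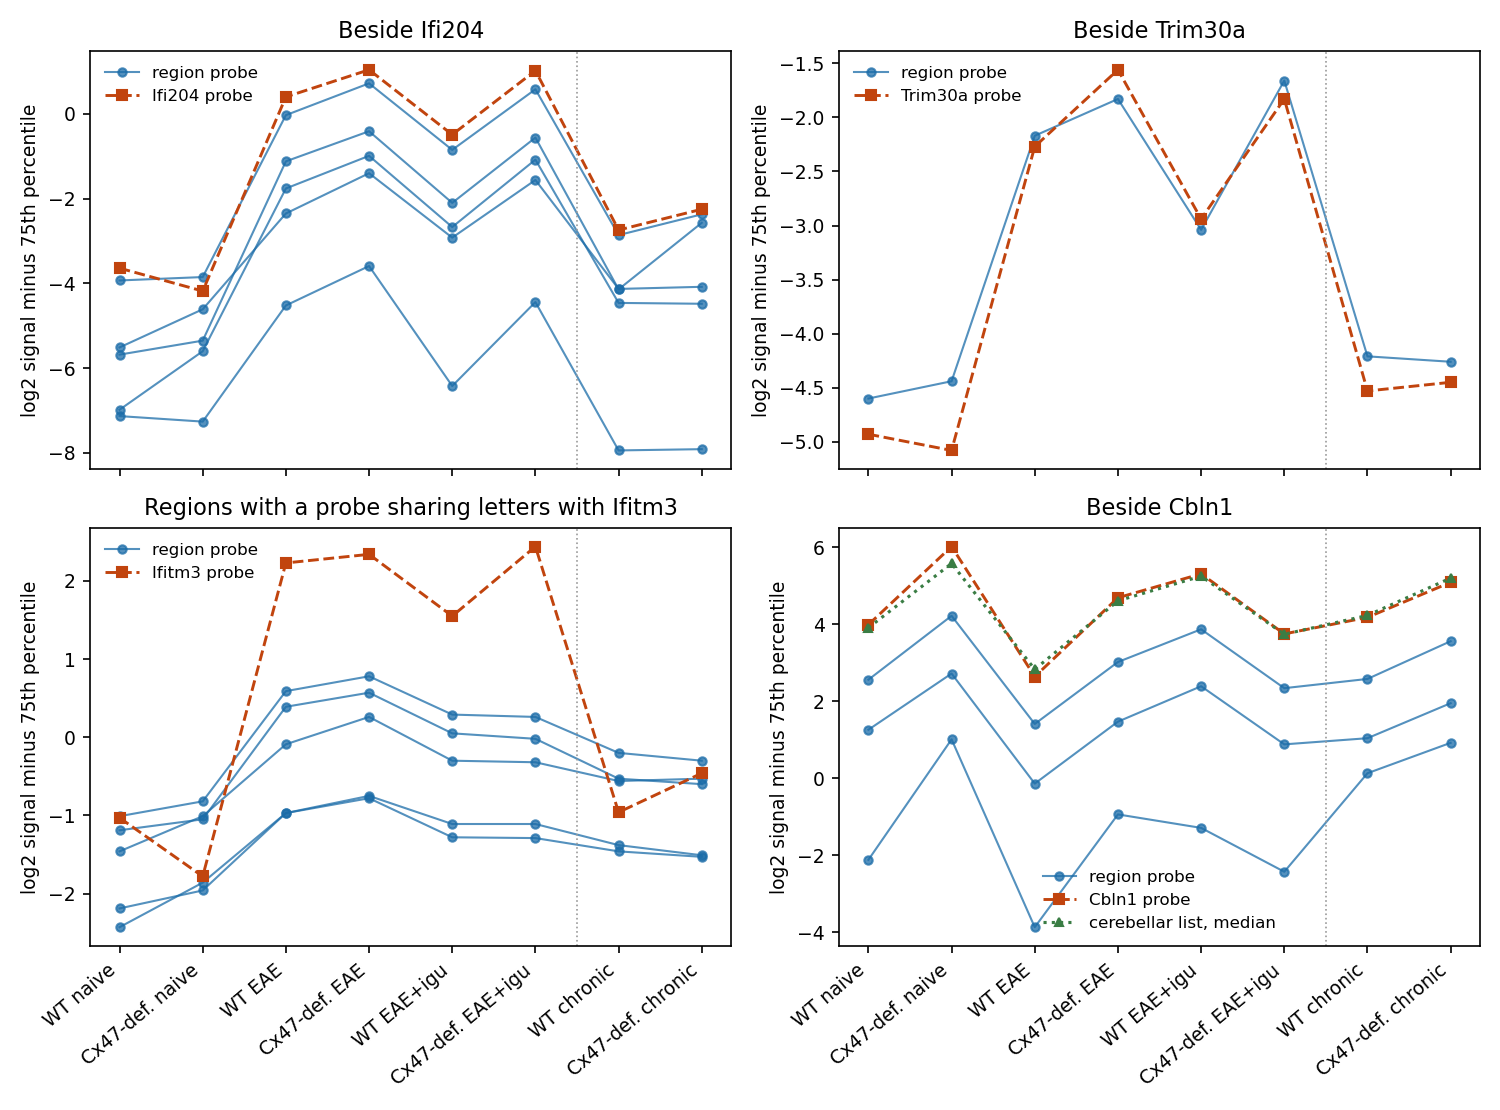
Level on each of the 8 arrays (y axis, log2 signal minus the 75th percentile of the array) of region probes (blue) and of a protein-coding probe (red) beside Ifi204, beside Trim30a, of the 2 regions with a probe that shares letters with Ifitm3, and beside Cbln1. A dotted line separates the chronic slide, and in the first 3 panels the 4 arrays of acute EAE lie above the naive arrays, as for the Ifi204 probe, which runs from -4.18 to 1.04.

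Across all region probes the limma fit of EAE minus naive called 0 of 2658 at an adjusted p under 0.05, against 0.0705% of all 39736 probes tested. At an unadjusted p under 0.05 there were 146 region probes (5.49%), against 6.79% of all probes. Other settings of the same fit called between 0 and 9 region probes. The median difference was -0.15, with 874 of 2658 above 0, and -0.05 for NM_ probes of like signal. Markers of immune and endothelial cells moved with the interferon-neighbouring probes. The median of the 6 microglia and macrophage markers was 1.06 and 0.94 on the naive arrays, 2.26 to 3.26 on the 4 arrays of acute EAE, and 1.51 and 1.67 on the chronic arrays. The median of the 4 T cell markers on the array, of 5 listed, was -6.24 and -6.30, -2.94 to -0.69, and -3.88 and -3.62, with 1 of the 4 well above background on all 8 arrays and none below it on all. The median of the 5 endothelial markers, all well above background on all 8 arrays, took the same course, with -0.64 and -1.90 on the naive arrays, 0.47 to 1.72 in acute EAE, and -1.45 and -0.17 on the chronic arrays. The part of these cells in the result was not tested.

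Iguratimod, an anti-inflammatory compound, was compared with untreated EAE and with naive mice. The limma fit with Benjamini-Hochberg adjustment called 0 of 2658 region probes between treated and untreated EAE, where 0.0% of all probes were called and 96 region probes (3.61%) had an unadjusted p under 0.05, against 1.95% of all probes. Between treated EAE and naive it also called 0, against 0.00252% of all probes, with 242 (9.10%) at an unadjusted p under 0.05, against 7.15% of all probes. Other settings gave 0 region probes in the first and between 0 and 8 in the second comparison. Median differences of the region probes were -0.04 and -0.20, and -0.05 and -0.07 for NM_ probes of like signal.

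Among region probes detected on all 8 arrays, the probe beside Ifi204 at 175706660 had the largest value against naive, 3.75 ± 0.34 (limma adjusted p = 0.0923), and the Trim30a neighbour gave 2.17 ± 0.37 (limma adjusted p = 0.194). A region 133790 bases from Peg10, chr6:4841700-4847400, came next among them. Its reverse-strand probe had levels of -2.55, -2.62, -1.28, -0.77, -1.70, -0.69, -2.94 and -2.83, with all 4 acute arrays above the rest, and a difference of 1.39 ± 0.30 from naive (limma adjusted p = 0.302). The forward-strand probe of that region had, again among those on all 8 arrays, the lowest value of treated minus untreated EAE, -1.08 ± 0.27. The limma adjusted p was 1.00 for it and for every other region probe named in that comparison. Another named value was 0.97 ± 0.80 for the probe beside Cbln1 at 90049402. The rest are given by the nearest detected NM_ probe. They were 0.95 ± 0.47 (Chst1, 143856 bases away), 0.94 ± 0.37 (Sgms2, 130953 bases), -0.86 ± 0.33 (Fn1, 42726 bases) and -0.76 ± 0.49 (Anxa5, 685 bases).

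The lowest differences of EAE minus naive among probes on all 8 arrays lay beside Cbln1 and, at chr10:69679644-69682458 (-1.19 ± 0.89), beside Ccdc6. The probe of region chr8:90000619-90061169 had levels of -2.12, 1.01, -3.87, -0.94, -1.29, -2.43, 0.13 and 0.92, and the probe at 90049402 had 1.26, 2.72, -0.14, 1.47, 2.39, 0.88, 1.04 and 1.95. The Cx47-deficient array was higher than the WT array when naive and in EAE and lower with iguratimod, for both. The overlapping probe at 90049387 had 2.56, 4.22, 1.41, 3.02, 3.87, 2.34, 2.58 and 3.56, and correlated with the probe at 90049402 at 0.995 over 8 arrays.

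The fitted differences of EAE minus naive were -1.85 ± 1.1, -1.32 ± 0.80 and -1.18 ± 0.83, each with a limma adjusted p of 0.912. Cbln1, 65783 and 55981 bases from the first 2 probes, had levels of 3.99, 6.02, 2.64, 4.69, 5.31, 3.75, 4.18 and 5.09. The correlation with Cbln1 was 0.837, 0.987 and 0.993. The median level of the 6 cerebellar markers, of which Cbln1 is 1, was 3.91, 5.58, 2.83, 4.61, 5.25, 3.74, 4.23 and 5.20, with a correlation of 0.856, 0.976 and 0.990 with the 3 region probes. All 6 cerebellar markers were well above background on all 8 arrays of samples labelled spinal cord. Their part in the result was not tested.

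In chronic EAE many region probes differed from the acute arrays, in both directions, and far fewer were called against the naive arrays. Against acute EAE the limma fit with Benjamini-Hochberg adjustment called 697 of 2658 region probes at 647 places (26.2%), 541 higher and 156 lower, beside 19% of all probes called, 11.8% higher and 7.15% lower, and 12.6% of NM_ probes. Among the 1605 region probes detected on every array there were 384, 242 higher and 142 lower. No matching share over all probes is given for this count or for the settings that follow, so these are descriptions. The split moved with the scaling: 570 higher and 304 lower with normexp background correction, 454 and 294 with quantile normalization, 598 and 380 with median centring, and 451 and 292 with the authors' processed values. Marker lists moved with this comparison too, and their part was not tested. The oligodendrocyte median was 3.54 to 4.80 on the 6 arrays of the shared slide and 2.50 and 2.97 on the chronic arrays, and the astrocyte median 2.59 to 3.24 and 1.54 and 2.29. Leaving out either array of EAE, either array of EAE with iguratimod, or the WT chronic array left 0 calls, and leaving out the Cx47-deficient chronic array left 450.

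Against naive the fit called 102 region probes (3.84%), 86 higher and 16 lower, beside 2.84% of all probes, 1.45% higher and 1.38% lower, and 2.50% of NM_ probes. Among those detected on every array 34 were called, 18 higher and 16 lower. Here too, no matching share over all probes is given for this count or the settings that follow. With normexp the split was 361 higher and 292 lower, with quantile normalization 181 and 134, with median centring 264 and 165, and with the authors' values 171 and 129. The count was 0 without the WT chronic array or without any 1 of the other 6 naive and acute arrays, and 63 without the Cx47-deficient chronic array. Over all probes tested, the median of chronic minus acute EAE was 0.03, and -0.09 with normexp, -0.08 with quantile normalization or the authors' values and -0.40 with median centring. For chronic minus naive these medians were 0.03, -0.16, -0.07 and -0.35. Both comparisons use the same chronic arrays, and slide and phase cannot be told apart in either.

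The median difference of chronic minus acute EAE was 0.56 for region probes and -0.06 for NM_ probes of like signal, and of chronic minus naive 0.42 and 0.01. With normexp background correction, which treats dim spots differently, the former became 0.05 and -0.17, and the latter -0.10 and -0.23. Among probes detected on every array the former was 0.02 and -0.18, and the latter -0.02 and -0.17. When the region probes were split by mean signal into 3 groups of 886, chronic minus acute EAE was 1.39 in the dimmest, 0.54 in the middle and -0.17 in the brightest group, and 0.09, 0.10 and -0.21 with normexp. In the dimmest group 88.0% were higher on the chronic arrays and in the brightest 43.5%. Probes that passed the filter through the chronic arrays alone had to be higher there, so these shares are a description. Among probes detected on every array, 3 such groups of 535 gave 0.22 in the dimmest, 0.26 in the middle and -0.34 in the brightest. By GC content of the probe the medians were 0.95, 0.69 and 0.15 from the lowest to the highest such group, and 0.17, 0.05 and -0.10 with normexp.

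**Figure D3:**
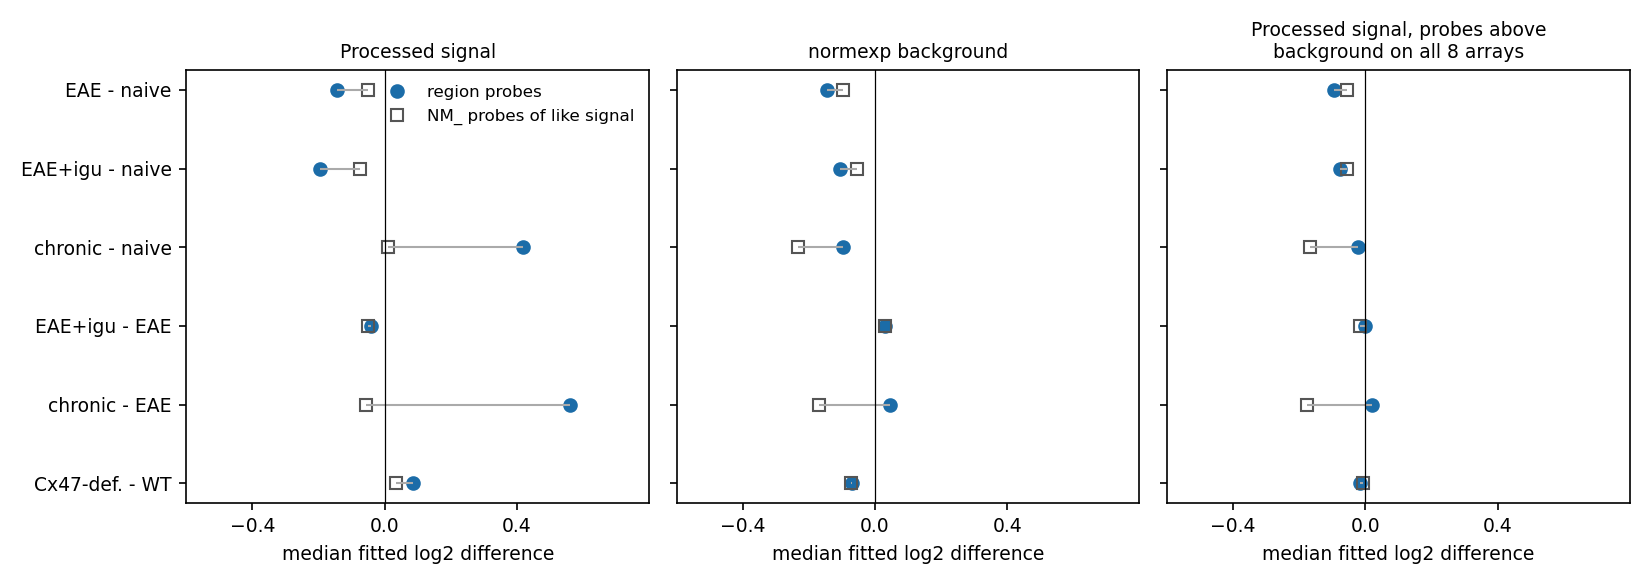
Median fitted log2 difference (x axis) of region probes (filled) and of NM_ probes of like mean signal (open) in the 6 comparisons (y axis), for the processed signal, for normexp background correction, and for probes well above background on all 8 arrays. The median of chronic minus acute EAE is 0.56 for region probes in the first panel, 0.05 in the second and 0.02 in the third.

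The largest called falls against naive were of probes well above background on all 8 arrays, where 16 were called lower and 18 higher, and several of the falls are given here. The reverse-strand probe of chr16:39984031-40081556, 957861 bases from Igsf11, had levels of 3.58, 2.52, 3.96, 3.27, 3.88, 3.55, 0.46 and 0.55, so both chronic arrays lay below the other 6. It fell by 2.55 ± 0.31 against naive (limma adjusted p = 0.0402) and by 3.11 ± 0.31 against acute EAE (limma adjusted p = 0.0303). Its difference from acute EAE was between -3.55 and -2.72 over the alternatives and passed in 10 of 15.

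The reverse-strand probe of chr7:50509139-50526856 had levels of 2.21, 1.57, 2.15, 1.62, 2.13, 2.15, -0.20 and -0.17, and fell by 2.07 ± 0.25 (limma adjusted p = 0.0402). There too the chronic arrays lay below all others. Further falls were 1.98 ± 0.23 at chr13:73472571-73483846, reverse strand, 1.97 ± 0.31 at chr16:4525147-4542122, forward strand, 3130 bases from Tfap4, and 1.71 ± 0.26 at chr2:170029045-170034220, reverse strand, with limma adjusted p-values of 0.0395, 0.0492 and 0.0480. All 5 of these probes fell against acute EAE too. Without the WT chronic array none of these calls remained, as for all region probes.

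The probes beside Ifi204 fell from acute to chronic EAE. For the probe at 175706660 the difference was -2.96 ± 0.34 (limma adjusted p = 0.0311), and it passed in 10 of the alternatives, with values of -3.39 to -2.52. For the 3 probes of the neighbouring region it was -2.59, -3.10 and -2.23, with limma adjusted p-values of 0.0342, 0.0338 and 0.0360. A second probe of the first region, detected on 3 arrays, is not well above background on the chronic arrays and was at least 3.37-fold lower there. It passed the detection filter through arrays of acute EAE alone, so no p is given for it. The Trim30a neighbour fell by 2.24 (limma adjusted p = 0.0370) and the probe at 96603471 that shares bases with Ifitm3 was called as well, with an adjusted p of 0.0388.

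Many of the largest rises came from probes that no naive or acute array measured. Where all arrays of a group left a probe below that detection limit, the ratio is a lower bound, set against the higher of the probe's own signal and the lowest detected signal of each dim array. The reverse-strand probe of chr11:22992716-23024484, 104138 bases from Fam161a, had levels of -7.28, -6.28, -7.46, -7.73, -7.49, -7.66, -3.32 and -3.49 and was detected on the chronic arrays alone. It was at least 3.92-fold higher than in acute EAE and at least 3.64-fold higher than naive, and its fitted log2 difference from acute EAE ranged from 0.88 to 4.44 over the alternatives.

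At chr12:21548850-21568550 the forward-strand probe had levels of -5.85, -6.32, -7.28, -7.51, -7.36, -7.45, -3.19 and -3.50. It was likewise detected on the chronic arrays alone. It was at least 4.09-fold higher than in acute EAE. Both probes passed the filter only through the arrays where they are high, so these values are a description and no p is given. Rises measured on some arrays of the other slide were 2.98 ± 0.38 at chr1:173250734-173259306, reverse strand, and 2.88 ± 0.37 at chr15:90156889-90184564, forward strand, against naive, each detected on 6 arrays, with limma adjusted p-values of 0.0424 and 0.0428. With normexp they were 1.73 and 1.20.

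Both strands were designed at 801 of the 3088 autosomal places, and at 399 of these both strands passed the filter, at 309 only 1 did, and at 93 neither. At 174 places both strands had a probe detected on all 8 arrays. Their median correlation was 0.118 over 8 arrays and 0.067 over the 6 arrays of the shared slide, with 66 above 0.5 and 79 below 0. Different probes of 1 region and strand, 71 groups on all 8 arrays, had a median of 0.774 and 0.616. These correlations are descriptions over few arrays that share slides.

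The 6 places with the most opposed strands had correlations of -0.976 to -0.967. At chr17:46972160-46997919, near Tbcc, the forward probe had levels of 3.29, 2.56, 3.43, 2.74, 3.24, 3.25, 1.56 and 1.61, and the reverse probe -2.56, -1.0, -2.60, -1.57, -2.32, -2.38, -0.41 and -0.30. The forward probe was lowest and the reverse probe highest on the chronic arrays, and over the other 6 arrays the correlation was -0.987. At chr2:72818943-72826893, near Sp3, the forward strand held the noncoding transcript Sp3os and had levels of -2.96, -1.41, -3.06, -1.85, -2.40, -2.53, -0.53 and -0.46. Its reverse probe had 0.44, 0.14, 0.40, 0.07, 0.33, 0.27, -0.29 and -0.27, with a correlation of -0.970, and -0.898 over 6 arrays. The remaining places were chr7:16584852-16657252, chr14:115423660-115463160, chr1:182686731-182709331 and chr4:56013597-56020622, each with one strand lower and the other higher on the chronic arrays than on any other array.

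The complementary probes of chr13:73472571-73483846 printed above, whose region holds a probe of the noncoding transcript D630045M09Rik on the reverse strand, did the same. The reverse probe had levels of 5.46, 4.87, 5.28, 4.86, 5.32, 5.27, 3.16 and 3.22, and the forward probe -3.29, -1.91, -4.38, -2.78, -3.24, -4.20, -0.03 and -0.13. The correlation was -0.934 over 8 and -0.667 over 6 arrays. Against acute EAE the reverse probe fell by 1.88 (limma adjusted p = 0.0316) and the forward probe rose by 3.50 ± 0.68 (limma adjusted p = 0.0391).

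In all, 268 region probes had a run of at least 20 bases in common with another probe of the array or with its reverse complement, 91 of them with a probe elsewhere in the genome. For pairs detected on all 8 arrays that read the same strand, the median correlation was 0.938 over 19 pairs at the same place and 0.965 over 58 pairs elsewhere, of which 45 were above 0.9 and 0 below 0. Over the 6 arrays it was 0.801 and 0.892. For pairs that read the reverse complement it was 0.457 over 41 pairs at the same place, 16 of them below 0, and 0.628 over 61 pairs elsewhere, 22 of them below 0. Over the 6 arrays it was 0.327 and 0.138.

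Among the 13 region probes that shared such a run with an NM_ probe elsewhere on the same strand, chr9:88575075-88611650, reverse strand, had 50 bases in common with Mthfs, a folate enzyme, and correlated with it at 0.990. The forward-strand probe of chr10:97196521-97207471 had 23 bases in common with Saraf, a regulator of store-operated calcium entry, and correlated at 0.975. The forward-strand probe of chr6:92040526-92041319 shared 20 to 23 bases with several NM_ probes at once, among them those of Nrp2, Mcam and Synpo2l, with correlations of 0.947, 0.957 and 0.985.

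**Figure D4:**
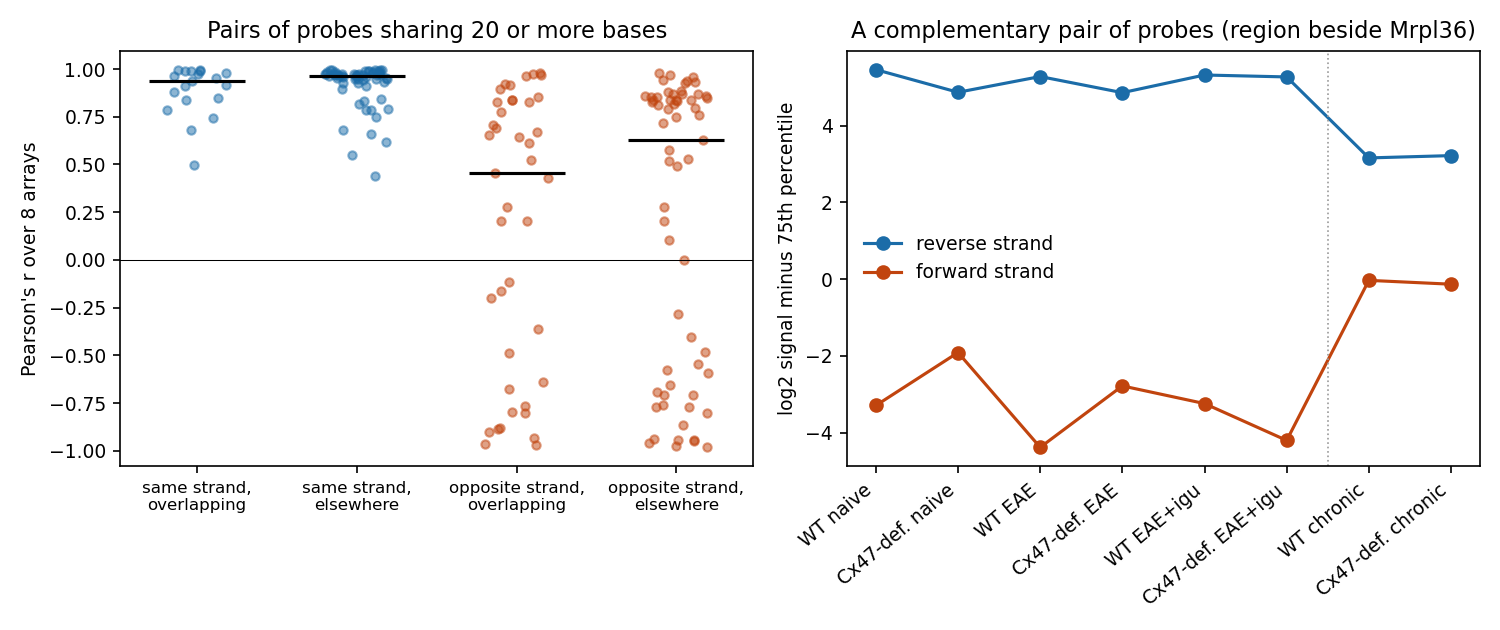
Left, Pearson correlation over 8 arrays (y axis) of pairs of probes that share 20 or more bases, on the same strand (blue) or the opposite strand (red), at overlapping positions or elsewhere, with lines at medians of 0.938, 0.965, 0.457 and 0.628. Right, level on each array (log2 signal minus the 75th percentile) of the complementary probes of chr13:73472571-73483846, where the reverse strand runs from 5.46 to 3.16 and the forward strand from -4.38 to -0.03.

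Between the genotypes the limma fit with Benjamini-Hochberg adjustment over all conditions called 0 of 2658 region probes, with 0.0% of all probes called, 161 region probes at an unadjusted p under 0.05 (6.06%) and 5.04% of all probes. Other settings also called 0. Among region probes detected on all 8 arrays, the highest fitted values of Cx47-deficient minus WT were those of chr8:90000619-90061169 beside Cbln1, 1.43 ± 0.78, chr14:73746324-73749119, reverse strand, 16411 bases from Itm2b, 1.22 ± 0.44, and chr14:62280837-62283960, reverse strand, 49283 bases from Kcnrg, 1.14 ± 0.38. The lowest were chr9:68349343-68411643, reverse strand, -0.74 ± 0.25, chr13:66381200-66410200, forward strand, -0.69 ± 0.34, and chr19:12079745-12088620, reverse strand, -0.60 ± 0.22. The limma adjusted p was 0.788 for all 6.

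The probe beside Itm2b had levels of -4.07, -1.54, -4.28, -2.56, -3.79, -3.38, -1.07 and -0.86, and that beside Kcnrg -2.84, -0.54, -2.98, -1.72, -3.28, -2.27, -0.35 and -0.37. In both, the Cx47-deficient array was higher when naive and in EAE, and the chronic arrays were nearly equal.

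That course held more widely in single-array differences, which have no replicate and no test. Among region probes well above background on at least 1 array of a pair, 318 of 2284 were 2-fold or more higher and 52 lower on the Cx47-deficient array when naive (13.9% and 2.28%), against 9.89% and 2.2% of all probes. In EAE there were 247 higher and 16 lower of 2204 (11.2% and 0.726%), against 7.29% and 0.581%. With iguratimod 42 were higher and 56 lower of 2015 (2.08% and 2.78%), against 2.7% and 1.89%, and in chronic EAE 43 and 28 of 2636 (1.63% and 1.06%), against 1.46% and 1.33%. After normexp the counts were 57 and 24, 29 and 7, 3 and 12, and 3 and 2. With median centring they were 165 and 185 when naive and 115 and 101 in EAE, so the excess of higher probes when naive turned with that centring. Over all spots, 59.7% were well above background on the WT and 65.8% on the Cx47-deficient array when naive. The shares were 59.9% and 65.5% in EAE, 61.1% and 62.6% with iguratimod, and 72.0% and 71.3% in chronic EAE. The part of detection over the whole array in the genotype counts was not tested.

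Of the 1605 region probes detected on every array, 95 (5.92%) were 2-fold higher on the Cx47-deficient array both when naive and in EAE. Among NM_ probes of like signal the share was 1.24%, and 3 of the region probes were lower in both. These counts were made with the percentile scaling alone, and no share over all probes is given for them. Over the wider set of region probes, median centring gave 165 higher and 185 lower when naive. Whether the contrast with NM_ probes holds under other settings was not tested, so it is a description. The median difference of these 95, which were chosen by the first 2 values, was 1.51 when naive and 1.32 in EAE, and 0.03 with iguratimod and -0.06 in chronic EAE. With iguratimod 43 of the 95 were lower on the Cx47-deficient array, and in chronic EAE 37 were higher. In 3 groups of 535 by mean signal, 18 were in the dimmest, 55 in the middle and 22 in the brightest.

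**Figure D5:**
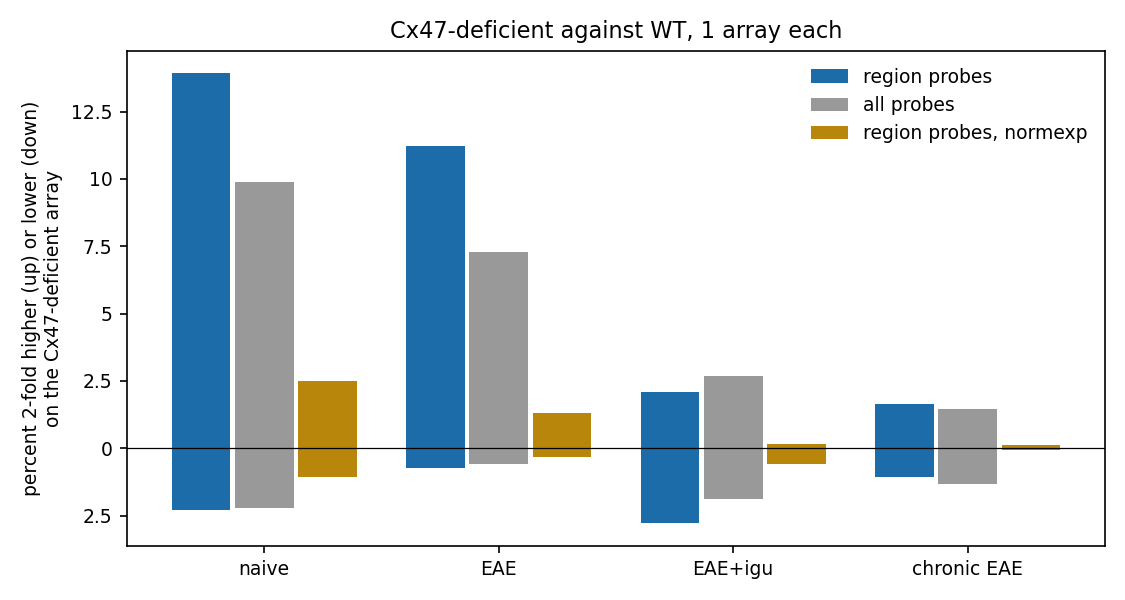
Percent of probes 2-fold or more higher (up) or lower (down) on the Cx47-deficient than on the WT array (y axis) in each condition, for region probes (blue), all probes (grey) and region probes after normexp background correction (ochre), with 1 array per group. The blue bars reach 13.9% higher when naive and 1.63% in chronic EAE, although with median centring 165 were higher and 185 lower when naive.

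Among region probes detected on all 8 arrays, the 2 widest ranges over the arrays, 5.41 and 5.14, belonged to probes in a stretch of chromosome 5 that holds the Speer genes, a family expressed mainly in testis with many near-identical copies. At chr5:14943275-14944205 the forward-strand probe had levels of 1.27, 2.77, -1.05, 2.90, 1.90, 0.58, 4.35 and 3.92, and that of chr5:15146475-15170100 had 1.22, 2.79, -0.80, 2.98, 1.86, 0.66, 4.34 and 3.82. The WT EAE array was lowest and the chronic arrays were highest in both. Another such probe at chr5:15033568-15033987, 4504 bases from Gm17019, ran in the same order from -2.43 to 2.23 and correlated with Gm17019 at 0.949. Given the copies in this stretch, the origin of the signal is uncertain. The forward-strand probe of chr19:54011403-54018978 had levels of -4.18, -1.49, -5.18, -2.25, -3.08, -4.82, -0.24 and -0.44. It lay 13118 bases from Bbip1, a subunit of the ciliary BBSome complex, and correlated with it at 0.995.

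Region probes lay at a median of 35183.5 bases from the nearest detected NM_ probe, 54.3% of them on the same strand. For the 543 within 10000 bases, the median correlation with that probe was 0.087 over 8 arrays, and -0.034 with the tenth nearest NM_ probe of the chromosome, with 26 and 15 above 0.9. For the 321 of them detected on all 8 arrays it was 0.166 and 0.111, with 19 and 8 above 0.9, and 0.212 on the same and 0.107 on the opposite strand. Correlations of neighbours were thus mostly low and slightly above those of probes farther away. No test was made of that difference.

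Within 10000 bases the closest likenesses were to Pdss1, which makes the side chain of coenzyme Q, at 6233 and 6262 bases. The forward probe of chr2:22782700-22801900 had levels of -2.54, -0.98, -2.55, -1.64, -2.45, -2.0, -0.07 and -0.17 and correlated at 0.993. The reverse probe had -4.93, -3.18, -4.99, -4.02, -5.10, -4.91, -2.63 and -2.66 and correlated at 0.982. These probes overlap on opposite strands, at 22789130-22789189 and 22789101-22789160, so they are not readings of separate places. The region holds probes of Pdss1 and of Abi1 on opposite strands. Next were region probes beside Mrpl33, a mitochondrial ribosomal protein (0.977), Gm14308 (0.968), Hdac11, a histone deacetylase (0.964), Cntrob, a centriole protein (0.963), and Igip (0.963). The probe beside Cntrob was detected on the chronic arrays alone, and its correlation over the other 6 arrays was 0.669. The probe beside Igip hardly moved, with levels of 4.17 to 4.58, and its region holds a probe of Pura on the same strand.

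Of 54 named long noncoding RNAs listed for comparison, 38 were on the array and 34 passed the detection filter. The limma fit with Benjamini-Hochberg adjustment called 0 of the 34 for EAE minus naive and for each comparison with iguratimod or between genotypes. The largest values of EAE minus naive were those of Mir142hg, the host of a microRNA of blood cells, and Dlx6os1, which is transcribed beside a homeobox gene of forebrain interneurons. Mir142hg had levels of -4.56, -3.20, -2.22, -0.82, -2.78, -1.44, -2.11 and -2.22 and a difference of 2.36 ± 0.43 (limma adjusted p = 0.156). Dlx6os1 had levels of -2.61, -2.72, -0.65, -0.43, -1.10, 0.16, 0.13 and 0.30, with both naive arrays below all others, and a difference of 2.12 ± 0.36 (limma adjusted p = 0.135). Fendrr, detected on 2 arrays, gave 2.12 ± 0.68, and 0.28 with normexp.

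Six3os1, detected on 6 arrays, differed by 0.86 ± 1.26, and Ftx, a regulator of Xist detected on 7 arrays, by 0.58 ± 0.47. Airn, Mir124a-1hg and Kcnq1ot1 differed by -0.63 ± 0.43, -0.63 ± 0.60 and -0.46 ± 0.42. With normexp these values were 0.07 and 0 for the former, and -0.52, -0.57 and -0.42 for the latter. Against naive, chronic EAE had 1 call, Dlx6os1, which rose by 2.88 (limma adjusted p = 0.0415). From acute to chronic EAE 7 of 34 rose and 1 fell, beside 11.8% of all probes called higher and 7.15% lower. The limma adjusted p-values of these 8 were 0.0405 to 0.0491. Miat, abundant in neurons, had levels of 2.42, 3.12, 2.27, 2.78, 1.63, 2.61, 5.05 and 4.29 and rose by 2.15. Meg3, an imprinted RNA of the nervous system, had 4.79, 5.52, 4.85, 5.37, 4.40, 5.23, 7.01 and 6.53 and rose by 1.66. Kcnq1ot1, Mir124a-1hg, Mirg, Snhg11 and Firre rose by 1.56 to 2.43. Neat1, the scaffold of paraspeckles, had -3.34, -3.43, -3.38, -2.61, -3.09, -2.54, -4.26 and -4.05 and fell by 1.16. The sign of each of these 8 was the same with normexp, quantile normalization, median centring and the authors' values. Slide and phase cannot be told apart here either. The median of the list was 0.02 for chronic minus acute EAE and -0.03 for EAE minus naive, against 0.03 and -0.08 over all probes tested.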

How the data were processed

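After TRIzol and column purification, total RNA was amplified with a low-input kit and labelled with Cy3, per the labels' protocols. The deposited scanner files give spot intensity after background subtraction, made with Agilent Feature Extraction 10.7.1.1 per the file headers. The submitters' processing notes give version 9.5.1.1 instead, which was not resolved. The authors' deposited table of processed intensity, quantile normalized to judge by its values, served as an alternative.

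From the processed signal, log2 values were taken, outlier spots (38 to 73 per array) left out, spots of a probe averaged, and each array's percentile 75 subtracted. The 39736 probes well above background on at least 2 arrays entered an additive model of condition and genotype over 8 arrays, fitted by limma 3.58.1 (R 4.3.3), which left 3 residual degrees of freedom. Its prior SD was 0.242, with 2.17 prior degrees of freedom. The fit was run on simulated data with independent noise and no slide or genotype effect. That run cannot show how well the calls here hold. A call is a Benjamini-Hochberg adjusted p under 0.05. With 1 array per group, the spread is how far the genotype difference varies between conditions. The number of arrays limits the precision.

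Region probes and lists were chosen with earlier results of these data known. Region probes named are the largest called rises and falls with 1 sign in every matched pair, or, where fewer than 3 were called, the 3 largest values on each side among probes on all 8 arrays, then those of widest range, largest genotype pairs, most opposed strands, and highest likeness to an NM_ probe within 10000 bases. Beside these, the probes of the 2 regions that share bases with Ifitm3, the overlapping probe beside Cbln1, the complementary pair and the Rn18s region were chosen after their values were seen. The text gives only part of the region probes these rules name, and the targeted gene is not reported here. Shared runs of at least 20 bases were searched among probe letters on both strands. Alternatives were normexp with an offset of 50, quantile normalization, median centring, the authors' values, other detection filters, 1 probe per name, the 6 arrays of slide 1, and leaving out each array. There were 0 columns of values without a sample.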

Additional observations from a re-analysis of the deposited data

Results flagged for a closer look

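In 14 instances the 2 genotypes moved 2-fold or more in opposite directions for a region probe chosen by the naming rules. Each rests on 1 array per group, and the difference was not tested. The naming rules chose these probes by large values on the same arrays, among them large genotype pairs and wide ranges. The instances are therefore a description, and no share over all probes is given.

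From untreated to iguratimod-treated EAE, WT rose and Cx47-deficient fell on the log2 scale for 6 probes. The values were 2.58 and -1.50 at chr8:90000619-90061169 beside Cbln1, 1.52 and -2.02 at chr4:146124275-146149125, 2.95 and -2.32 at chr5:14943275-14944205, 2.66 and -2.31 at chr5:15146475-15170100, 2.54 and -2.54 at chr5:15033568-15033987, and 2.10 and -2.56 at chr19:54011403-54018978.

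From naive to iguratimod-treated EAE the values for WT and Cx47-deficient mice were 1.14 and -1.84 at chr8:90048940-90049461, 1.15 and -1.99 at chr10:69679644-69682458, 1.1 and -3.32 at chr19:54011403-54018978, 1.25 and -2.86 at chr5:110502650-110522475, 1.11 and -2.70 at chr1:167515313-167516122, 1.34 and -3.0 at chr8:124355710-124401160, and 1.79 and -1.34 at chr17:13008796-13023201. From acute to chronic EAE the probe of chr13:70745633-70776516 changed by -1.24 in WT and by 1.30 in Cx47-deficient mice, with slide and phase not to be told apart. The cerebellar marker median, 2.83 to 5.25 in WT and 4.61 to 3.74 in Cx47-deficient mice from untreated to treated EAE, moved the same ways. Its part was not tested.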

How the results depend on the processing

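No paired analysis was possible because each group has 1 array, so no replicate numbers could pair them beyond the crossed condition and genotype already in the fit. The slide could not be fitted as a block beside the chronic phase. Called region probes for EAE minus naive, 0 in the report, numbered 7 with normexp, 2 with quantile normalization, 9 with median centring, 2 with the authors' values, 4 with probes on all 8 arrays and 2 with 1 probe per name. For iguratimod-treated EAE minus naive they numbered 2 with normexp, 8 with median centring and 1 with probes on all 8 arrays. For chronic EAE minus naive, 102 in the report, they numbered 653 with normexp, 315 with quantile normalization, 429 with median centring, 300 with the authors' values, 363 with probes on all 8 arrays, 33 with 1 probe per name and 0 without a filter, and 0 to 63 when 1 array was left out. For chronic minus acute EAE, 697 in the report, they numbered 314 without a filter and 0 to 568 when 1 array was left out. The shares over all probes in these settings are not given, so the counts are descriptions.

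The median of region probes minus that of like NM_ probes for EAE minus naive was -0.096, and -0.048 with normexp, -0.084 with quantile normalization, -0.083 with the authors' values, -0.038 with probes on all 8 arrays and -0.042 without a filter. For iguratimod-treated EAE minus naive it was -0.123, and -0.020 with probes on all 8 arrays. For chronic minus naive it was 0.408, and 0.136 with normexp and 0.143 with probes on all 8 arrays. For chronic minus acute EAE it was 0.617, and 0.215, 0.197 and, without a filter, 0.447. The 802 differences of 2-fold in the 4 genotype pairs became 137 with normexp. The median correlation with the nearest NM_ probe at any distance was 0.024, and 0.049 over the 6 arrays of slide 1, chosen after seeing the data. It was 0.087 within 10000, 0.041 within 50000 and 0.040 within 100000 bases over 8 arrays, and 0.160, 0.065 and 0.064 over those 6. Signal over background limits the dimmest region probes most, and the cause of these changes was not tested.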
